A study of Mus musculus with 6 samples.

Results

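The genes described here are targets of the sterol regulatory element-binding proteins (SREBPs) that build cholesterol and fatty acids. They were taken by name from a list of 32 symbols, with no rule on their measured values. The list was, however, chosen with earlier results of these data known. Since 2 of these symbols are older names of genes also listed under a newer one, the list stands for 30 genes, all of them present among the 24982 symbols of the count table. In that table's capitals, 18 are enzymes of sterol synthesis (ACAT2, HMGCS1, MVK, PMVK, MVD, IDI1, FDPS, FDFT1, SQLE, LSS, CYP51, TM7SF2, MSMO1, NSDHL, HSD17B7, EBP, SC5D and DHCR7), 8 are enzymes of fatty acid synthesis (ACLY, ACACA, FASN, SCD1, SCD2, ELOVL6, FADS1 and FADS2) and 4 are genes of regulation or sterol transport (SREBF1, SREBF2, INSIG1 and STARD4). They are written in mouse style from here on. All 30 passed the filter on low counts that left 11772 genes for testing.

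RNA was measured in natural regulatory T cells (nTreg, sorted as CD4+CD25+CD127lo from spleen), the T cells that restrain other immune responses, of B6.129 mice aged 8 to 10 weeks. The WT group and the KO group, of genotype Srsf1-flox/flox dLck.Cre, had 3 libraries each. The design text gives 3 mice per genotype, and each library was therefore treated as 1 animal. A source label calls the cells effector CD4 T cells, which the sort and the sample names do not. In these KO mice Cre is driven by the distal promoter of Lck, which is active in T cells in general, so Srsf1, a splicing factor, is targeted in other T cells as well as in Treg cells. Before RNA was taken, WT and KO cells alike spent 72 h in culture with antibodies to CD3 and CD28, each at 2 µg/ml, in the presence of recombinant IL-2, a T cell growth factor, at 10 ng/ml. The comparison of KO with WT asks how loss of Srsf1 alters RNA levels in such cells.

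SREBPs are made as membrane proteins of the endoplasmic reticulum, where Scap and the Insig proteins hold them while sterols are plentiful. When sterols run low, Scap carries them to the Golgi, where proteases release the part that enters the nucleus and switches on the genes of lipid synthesis, acting together with the factors NF-Y and Sp1 at neighbouring promoter boxes. T cells that have been activated raise this programme as they grow and divide, because each new cell needs membrane.

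Libraries held 10183626 to 27562046 counts, and each KO library (10183626 to 20373649) was shallower than each WT library (23263741 to 27562046). Values are CPM, counts scaled to library size with TMM factors, unless FPKM is named, and are listed in the order of replicates 1, 2 and 3, the third WT value being that of the library labelled WT replicate 3. Srsf1 itself had 1214 CPM in WT replicate 1, 1230 in WT replicate 2 and 755.5 in the library labelled WT replicate 3. KO replicate 1 had 438 CPM of Srsf1, KO replicate 2 had 811.7 and KO replicate 3 had 786.7. The library labelled WT replicate 3 thus lay below 2 of the KO libraries (exact two-sided permutation p = 0.3, where 3 against 3 allow no p under 0.1), and counts over the whole gene do not separate a deleted from an intact allele. KO replicate 1 stood apart from the other libraries, as shown with the values below, so results are given with and without these libraries. Foxp3, the factor that defines Treg cells, had mean levels of 128 CPM in WT against 411 CPM in KO, and Il2ra, which encodes CD25, had 5356 and 5036 CPM. Of the other Treg markers, Ikzf2 (119 and 223 CPM) and Tnfrsf18 (241 and 297) had higher means in KO and Ctla4 (662 and 383.5) a lower one. Tnfrsf18 was at 468.9 CPM in KO replicate 1 but 208.2 and 213.4 CPM in KO replicates 2 and 3. Ctla4 was at 1105 CPM in the library labelled WT replicate 3 but 449.9 and 430.6 CPM in WT replicates 1 and 2. In KO, Ctla4 was at 223.5, 353.5 and 573.6 CPM. The sum of the 5 overlapped (5022 to 8143 CPM in WT against 4627 to 8275 CPM in KO), but Il2ra made up most of it. All KO libraries lay above WT for Foxp3 and Ikzf2 (7.48% of all genes) and below WT for 0 of the 5 (8.18%). Foxp3 was at 159.6, 120.7 and 104.3 CPM in WT against 464.4, 356.7 and 412.9 CPM in KO (log2 fold change +1.68, SE 0.25, edgeR adjusted p = 0.197, DESeq2 adjusted p = 1.59e-06). The 4 T cell markers (Cd3e, Cd3g, Cd4 and Cd5) summed to 846.2 to 979.9 CPM in WT against 1368 to 1489 CPM in KO. All KO libraries lay above WT for Cd3e, Cd4 and Cd5 (7.48% of all genes), while the groups overlapped for Cd3g (log2 fold change +0.08, SE 0.21). Summed Cd8a and Cd8b1, markers of CD8 T cells, ranged from 193.2 to 269.1 CPM in WT, against 38.9 to 60.5 CPM in KO. Cd8b1 was 1 of the 2 genes called in the edgeR test over all genes (log2 fold change -2.68, SE 0.23, adjusted p = 0.0166) and had its smallest p. Cd8a was not called in that test (-1.92, SE 0.29, adjusted p = 0.197). The DESeq2 adjusted p was 3.41e-06 for Cd8a and 4.66e-24 for Cd8b1. The 4 B cell markers summed to at most 4.75 CPM, the 3 NK markers to at most 12.1 CPM and the 5 myeloid markers to at most 0.501 CPM in any library, and the fat and liver genes Adipoq, Plin1 and Alb were listed at 0 in all 6. In RNA from bulk cells, fewer cells of a type and less RNA per cell cannot be told apart.

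RefSeq promoter windows (build GRCm38.p6, 250 bases before to 50 after a start) were at hand for 23 of the 30 genes. The 200 bases before the start are printed for the 6 sterol genes with a window whose KO libraries all lay below the WT libraries, for Mvk, a sterol gene without such a pattern, and for the fatty acid genes Fasn and Elovl6. Sequences run 5′ to 3′ on the gene's strand, and capitals mark matches, on either strand, to the NF-Y box CCAAT, the Sp1 box GGGCGG and the sterol regulatory element TCACNCCAC.
Acat2, chr17:12960726-12960925, reverse strand: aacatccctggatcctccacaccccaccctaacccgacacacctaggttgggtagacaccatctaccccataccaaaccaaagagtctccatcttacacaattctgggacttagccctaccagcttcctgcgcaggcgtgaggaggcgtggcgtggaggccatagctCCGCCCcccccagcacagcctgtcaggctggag
Hmgcs1, chr13:119690151-119690350, forward strand: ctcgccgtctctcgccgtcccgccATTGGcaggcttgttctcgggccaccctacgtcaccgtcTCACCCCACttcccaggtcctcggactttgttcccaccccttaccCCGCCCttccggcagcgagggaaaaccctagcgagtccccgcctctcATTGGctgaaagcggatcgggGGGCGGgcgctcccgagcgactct
Pmvk, chr3:89454341-89454540, forward strand: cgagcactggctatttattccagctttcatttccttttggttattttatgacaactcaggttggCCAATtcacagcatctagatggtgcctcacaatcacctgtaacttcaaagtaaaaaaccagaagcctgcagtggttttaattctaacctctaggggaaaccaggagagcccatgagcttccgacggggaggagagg
Lss, chr10:76531405-76531604, forward strand: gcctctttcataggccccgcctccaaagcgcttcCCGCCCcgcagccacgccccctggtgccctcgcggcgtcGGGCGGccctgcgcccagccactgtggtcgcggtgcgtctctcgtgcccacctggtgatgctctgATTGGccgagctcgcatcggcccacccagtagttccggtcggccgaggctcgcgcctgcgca
Msmo1, chr8:64733579-64733778, reverse strand: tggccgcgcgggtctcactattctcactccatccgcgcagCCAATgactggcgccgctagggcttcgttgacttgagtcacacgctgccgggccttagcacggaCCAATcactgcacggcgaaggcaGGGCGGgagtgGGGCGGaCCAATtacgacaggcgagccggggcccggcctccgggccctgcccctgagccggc
Hsd17b7, chr1:169969206-169969405, reverse strand: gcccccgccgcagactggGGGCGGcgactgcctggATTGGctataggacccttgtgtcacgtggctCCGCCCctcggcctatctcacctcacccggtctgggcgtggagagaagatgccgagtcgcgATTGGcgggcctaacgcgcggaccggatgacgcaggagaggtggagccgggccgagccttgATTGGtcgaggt
Mvk, chr5:114444069-114444268, forward strand: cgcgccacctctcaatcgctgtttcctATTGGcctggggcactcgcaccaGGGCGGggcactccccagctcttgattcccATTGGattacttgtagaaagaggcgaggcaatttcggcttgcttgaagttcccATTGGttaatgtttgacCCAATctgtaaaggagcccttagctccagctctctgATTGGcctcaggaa
Fasn, chr11:120824548-120824747, reverse strand: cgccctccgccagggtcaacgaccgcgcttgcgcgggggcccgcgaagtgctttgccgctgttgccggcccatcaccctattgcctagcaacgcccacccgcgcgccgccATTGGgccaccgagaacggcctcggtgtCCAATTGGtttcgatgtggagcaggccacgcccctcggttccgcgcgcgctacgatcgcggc
Elovl6, chr3:129532186-129532385, forward strand: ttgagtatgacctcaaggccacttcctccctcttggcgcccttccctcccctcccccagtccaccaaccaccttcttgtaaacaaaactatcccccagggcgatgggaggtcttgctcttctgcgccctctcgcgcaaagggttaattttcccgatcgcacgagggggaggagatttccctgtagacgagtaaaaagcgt

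Both boxes were found in the stretches of Hmgcs1, Lss, Msmo1, Hsd17b7 and Mvk, GGGCGG alone in that of Acat2, CCAAT alone in those of Pmvk and Fasn, and neither in that of Elovl6. At least 1 CCAAT was found in the windows of 14 of 15 sterol synthesis genes with a window (93.3%), against 41.1% of all 27025 genes in the table. GGGCGG was likewise found in 14 of 15 (93.3%), against 38.2% of all genes. Of the 5 fatty acid genes with a window, 2 held CCAAT (40%) and 2 held GGGCGG (40%), near the shares of all genes. Those shares include genes not tested here and were not matched for GC content. The full element TCACNCCAC was found in 1 member, Hmgcs1, 137 to 129 bases before the start, against 1.44% of all genes. A looser core, CACNCCA, which lies within that element and was searched after these results were seen, was found in 5 of 23 members (21.7%) against 20.6% of all genes. The stretch of Mvk held 5 CCAAT matches and 1 GGGCGG, and that of Hsd17b7 held 3 and 2. Whether box content goes with the fold changes was not tested. These are matches of letters in fixed windows, not sites shown to be bound.

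Per transcript length, in the authors' FPKM, Scd2 was the most abundant of the 30 genes, at 355.5, 384.3 and 501.7 FPKM in the WT libraries and 175.4, 155.0 and 362.3 FPKM in the KO libraries. Its product, a stearoyl-CoA desaturase, puts the double bond into newly made saturated fatty acids. Among the sterol enzymes other than Idi1, Fdps (mean 141.6 FPKM in WT), Hmgcs1 (119.1), Cyp51 (98.9) and Msmo1 (82.3) were the most abundant. Idi1 could not be ranked, because its FPKM (mean 159.6 in WT) was 13.4 times its CPM per kilobase of GENCODE transcript, while this ratio lay between 0.554 and 1.69 in the other 29 genes. Tm7sf2 (2.58 FPKM) and Mvk (4.48) were the least abundant in WT. The WT ranges of Fdps (109.7 to 195.8 FPKM) and Hmgcs1 (101.7 to 146.5) overlapped, so their order is not set apart from the spread between libraries.

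**Figure D1:**
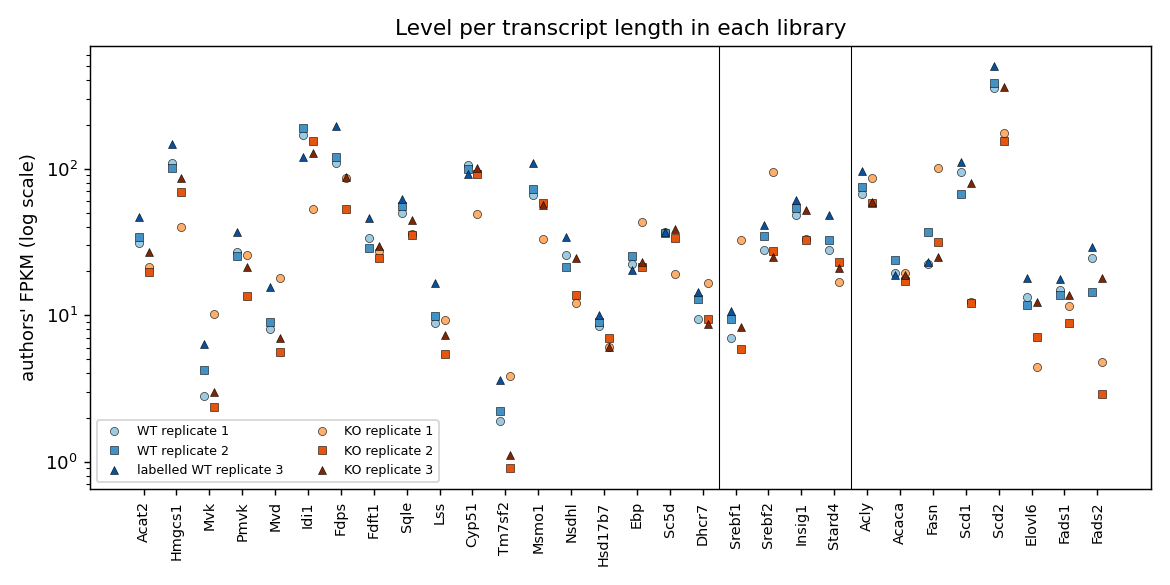
Level of each of the 30 genes in each library, as the authors' FPKM on a log axis, with sterol synthesis, regulators and transport, and fatty acid synthesis separated by vertical lines; each point is 1 library. Scd2 lies highest (155.0 to 501.7 FPKM), and the KO replicate 1 points of Srebf1, Srebf2 and Fasn lie above all others of those genes. The FPKM of Idi1 disagrees with its counts.

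Sterol synthesis genes were mostly lower in KO libraries, but none passed the test over all genes. Of 18, 16 had a fitted fold change below 0, with a median log2 fold change of -0.54, where over all genes tested the share below 0 was 48.4% and the median 0.02. In 8 of the 18 every KO library lay below every WT library, and in 0 the reverse held, where 8.18% of all genes had the first pattern and 7.48% the reverse. By edgeR's quasi-likelihood test with Benjamini-Hochberg adjustment over all genes, 0 of the 30 members were called, where 0.017% of all genes were called, and the members' adjusted p ran from 0.529 to 0.957. At an unadjusted p under 0.05, 7 members were lower (6 sterol enzymes and Stard4) and 0 higher, where 2.76% of all genes were lower and 4.75% higher (7.51% together). DESeq2 also called 0 of the 30, where it called 0.297% of all genes lower and 0.799% higher. Relative to the WT mean, the average log2 level of the 18 genes was -0.10 and -0.11 in WT replicates 1 and 2, 0.21 in the library labelled WT replicate 3, and -0.59, -0.66 and -0.36 in KO replicates 1, 2 and 3.

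In the first steps, which join acetyl-CoA units into mevalonate, Acat2 and Hmgcs1 were lower in each KO library. Acat2, whose product makes acetoacetyl-CoA, stood at 66.8, 64.4 and 86.9 CPM in the WT libraries and 32.7, 38.9 and 51.8 CPM in the KO libraries. Hmgcs1, which encodes the HMG-CoA synthase, stood at 507, 432 and 610.1 CPM against 158.7, 308.3 and 394.6 CPM. The groups did not overlap in either gene, and KO replicate 3 came closest to WT in both. Their log2 fold changes were -0.82 (SE 0.26, edgeR adjusted p = 0.529) for Acat2 and -0.85 (SE 0.34, edgeR adjusted p = 0.651) for Hmgcs1.

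The steps from mevalonate to the isoprenoid units were mixed. Mvk, the mevalonate kinase, stood at 6.64, 9.06 and 13.3 CPM in WT against 19.1, 4.98 and 6.72 CPM in KO, and Mvd, the decarboxylase, at 18.5, 19.5 and 33.3 against 34.4, 12.4 and 16.1 CPM. In both genes KO replicate 1 was the highest library of all and KO replicates 2 and 3 lay near or below the lower end of WT. Pmvk, the kinase between them, stood at 34.1, 30.2 and 43.5 CPM in WT against 29.9, 16.2 and 25.3 CPM in KO (edgeR log2 fold change -0.60, SE 0.30, adjusted p = 0.682), with KO replicate 1 just under WT replicate 2. Idi1, the isomerase, stood at 42.9, 38.7 and 26.1 CPM in WT against 7.73, 37.0 and 29.6 CPM in KO, so that KO replicate 1 alone left the WT range. Without KO replicate 1, the log2 fold change of Mvk went from +0.10 to -0.73, that of Mvd from -0.18 to -0.74 and that of Idi1 from -0.54 to -0.11.

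Fdps, whose product makes farnesyl diphosphate, the last intermediate that sterols share with other isoprenoids, had the largest fitted decrease among the sterol enzymes and, with Acat2 next, the smallest unadjusted p of all 30 genes. It stood at 93.4, 110.5 and 172.3 CPM in WT against 75.0, 45.1 and 69.4 CPM in KO. All KO libraries lay below the WT libraries, whose highest value came from the library labelled WT replicate 3. The log2 fold change was -0.99 (SE 0.31, unadjusted p = 0.0115, edgeR adjusted p = 0.529).

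Of the 3 enzymes that turn farnesyl diphosphate into lanosterol, Sqle and Lss had KO libraries wholly below WT. Fdft1, the squalene synthase, stood at 113.8, 86.7 and 137.2 CPM in WT against 70.2, 80.2 and 104.4 CPM in KO, with KO replicate 3 inside the WT range. Sqle, the epoxidase whose product carries out the first oxygen-dependent step, stood at 187, 194.5 and 210.8 CPM against 110.5, 125.8 and 161.5 CPM. Lss, the cyclase, stood at 79.2, 82.1 and 135.1 CPM against 69.9, 46.1 and 65.0 CPM. Sqle had the narrowest WT range of these genes, and its KO range was clear of it. Log2 fold changes were -0.41 (SE 0.26) for Fdft1, -0.57 (SE 0.23) for Sqle and -0.71 (SE 0.29) for Lss, with edgeR adjusted p of 0.733, 0.651 and 0.651.

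From lanosterol onward, 2 of 8 genes were low in all KO libraries and 2 others in KO replicate 1 alone. Msmo1, the methyl sterol monooxygenase, stood at 156.5, 163.3 and 237.2 CPM in WT against 65.9, 133.6 and 133.8 CPM in KO (edgeR log2 fold change -0.74, SE 0.33, adjusted p = 0.660). Hsd17b7, a keto-reductase of the same demethylation steps, stood at 53.2, 53.3 and 57.6 CPM against 31.7, 42.6 and 38.1 CPM (edgeR log2 fold change -0.55, SE 0.22, adjusted p = 0.651). Both had groups that did not overlap. Cyp51, the lanosterol demethylase, stood at 636.1, 561.8 and 506.5 CPM in WT against 244.3, 532.9 and 602.2 CPM in KO. Sc5d, a sterol desaturase, stood at 110.7, 102.1 and 100.1 CPM against 46.9, 97.3 and 114.6 CPM. In these last 2 genes KO replicates 2 and 3 lay within or close to the WT range, and only KO replicate 1 stood far below it. Without KO replicate 1 the log2 fold change of Sc5d went from -0.28 to +0.02 and that of Cyp51 from -0.31 to -0.0025.

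The remaining sterol enzymes overlapped between groups. Nsdhl, a decarboxylating dehydrogenase, stood at 75.3, 58.2 and 90.6 CPM in WT against 29.3, 38.4 and 70.3 CPM in KO (edgeR log2 fold change -0.70, SE 0.35, adjusted p = 0.682). Its KO replicate 3 lay inside the WT range. Ebp, a sterol isomerase, stood at 49.3, 53.5 and 41.6 CPM against 79.9, 46.6 and 51.0 CPM, and Dhcr7, the last reductase of the pathway, at 35.8, 46.0 and 49.9 against 52.8, 34.0 and 32.6 CPM. Tm7sf2, a sterol reductase, stood at 3.80, 4.16 and 6.28 CPM against 6.86, 1.66 and 2.31 CPM. In Ebp, Dhcr7 and Tm7sf2, KO replicate 1 was the highest of the 6 libraries. Log2 fold changes were +0.30 (SE 0.27) for Ebp, -0.14 (SE 0.28) for Dhcr7 and -0.37 (SE 0.55) for Tm7sf2, and without KO replicate 1 they were +0.018, -0.40 and -1.27. Without KO replicate 2 they were +0.44, -0.04 and -0.033.

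**Figure D2:**
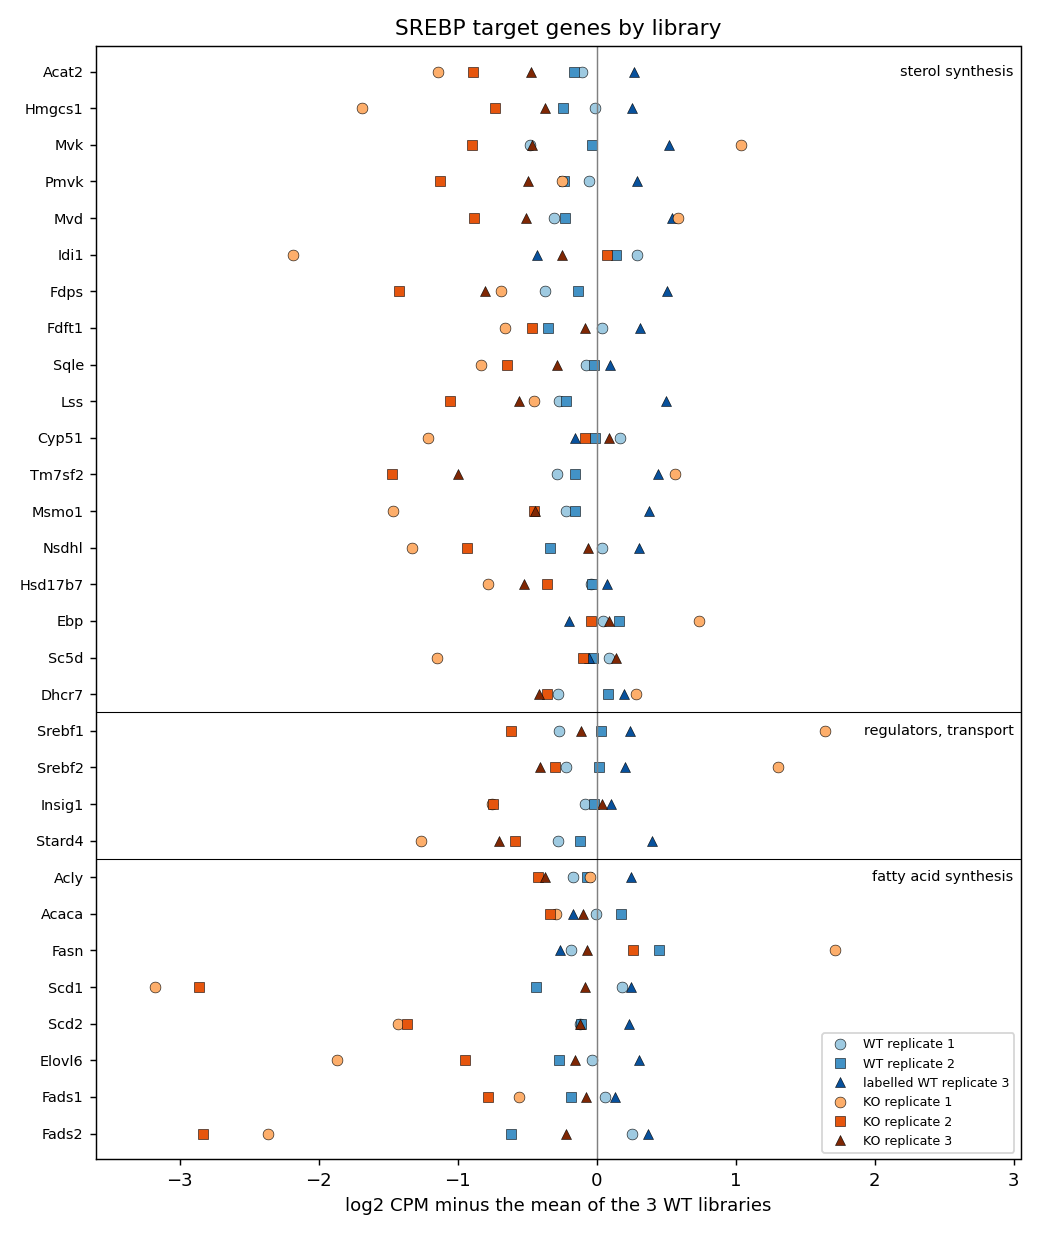
Each of the 30 genes in each library, as log2 CPM minus the mean of the 3 WT libraries, grouped into sterol synthesis, regulators and transport, and fatty acid synthesis. KO points lie mostly left of 0 among sterol genes, while KO replicate 1 lies far to the right for Srebf1, Srebf2 and Fasn, and KO replicates 1 and 2 lie far to the left for Scd1 and Fads2.

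The genes of regulation and transport were divided, with 2 of 4 below 0 and a median log2 fold change of -0.01. Srebf1, which encodes the SREBP form tied mainly to fatty acid genes, stood at 43.0, 53.0 and 61.1 CPM in WT against 162.1, 33.8 and 48.0 CPM in KO. Srebf2, the form tied mainly to sterol genes, stood at 176.9, 207.6 and 237.1 CPM against 507.5, 166.8 and 155.2 CPM. In both, KO replicate 1 was the highest library and the other KO libraries were within or below the WT range. Log2 fold changes were +0.64 (SE 0.53) and +0.42 (SE 0.45), and without KO replicate 1 they were -0.36 and -0.36. Insig1, which retains SREBPs in the endoplasmic reticulum and is itself an SREBP target, stood at 122.9, 128.2 and 140.0 CPM in WT against 77.3, 77.7 and 133.4 CPM in KO, with KO replicate 3 inside the WT range (log2 fold change -0.44, SE 0.27, edgeR adjusted p = 0.724). Stard4, a carrier of cholesterol between membranes, stood at 203.9, 226.8 and 325.9 CPM against 102.9, 164.0 and 152.0 CPM, with all KO libraries below WT (log2 fold change -0.85, SE 0.28, edgeR adjusted p = 0.573).

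Fatty acid genes had a median log2 fold change of -0.65, with 7 of 8 below 0, and their KO libraries were spread differently from those of the sterol genes, a difference that was not tested. In 0 of the 8 were all KO libraries below all WT libraries, where 8.18% of all genes had that pattern. The count was 6 of 8 without KO replicate 3 (13.9% of all genes) and 4 of 8 without WT replicate 2 (12.4%). It was 1 of 8 without WT replicate 1 (9.72%), without the library labelled WT replicate 3 (14.3%) or without KO replicate 1 (16.4%). Without KO replicate 2 it was 0 of 8 (12.1%). Relative to the WT mean, their average log2 level was -0.0034 and -0.13 in WT replicates 1 and 2 and 0.14 in the library labelled WT replicate 3, against -1.003 and -1.16 in KO replicates 1 and 2 and -0.15 in KO replicate 3. By this average KO replicate 3 was thus close to WT replicate 2, whereas its average over the sterol genes lay below that of each WT library. In single sterol genes, such as Cyp51, Fdft1 and Nsdhl, KO replicate 3 lay inside the WT range.

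The enzymes that supply and build the fatty acid chain showed no common shift. Acly, which makes cytosolic acetyl-CoA from citrate, stood at 412.8, 442.6 and 551.7 CPM in WT against 450.6, 347 and 360.1 CPM in KO. Acaca, the acetyl-CoA carboxylase, stood at 115.4, 130.8 and 102.7 CPM against 94.5, 91.8 and 108.0 CPM. The groups overlapped in both (log2 fold changes -0.28, SE 0.24, and -0.25, SE 0.21). Fasn, the fatty acid synthase, stood at 319.6, 497.6 and 303.7 CPM in WT against 1198, 436.5 and 346.6 CPM in KO. KO replicate 1 held by far the highest Fasn level, and KO replicates 2 and 3 lay inside the WT range (log2 fold change +0.82, SE 0.47, edgeR adjusted p = 0.716). Without KO replicate 1 the log2 fold change of Fasn was +0.067.

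Among genes that desaturate and elongate fatty acids, Fads2 and Scd1 had the largest fitted decreases of the 30, and these came from KO replicates 1 and 2. Scd1, a stearoyl-CoA desaturase, stood at 615.2, 401.1 and 644.2 CPM in WT against 59.8, 74.3 and 510.0 CPM in KO. Fads2, which starts the synthesis of long polyunsaturated fatty acids, stood at 52.5, 28.7 and 56.9 CPM against 8.55, 6.19 and 37.9 CPM. In both genes KO replicates 1 and 2 lay far under every WT library while KO replicate 3 lay between the lowest and the highest WT library. Scd2 stood at 2638, 2653 and 3374 CPM against 1065, 1112 and 2640 CPM, and Elovl6, an elongase of newly made fatty acids, at 105.0, 88.8 and 132.4 against 29.4, 55.5 and 96.4 CPM. The same 2 KO libraries were low for these genes too, and KO replicate 3 again reached the WT range. Fads1, a desaturase that acts after Fads2, stood at 69.8, 58.9 and 73.5 CPM against 45.4, 39.1 and 63.7 CPM, again with KO replicate 3 alone inside the WT range.

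None of these 5 genes passed the test. Log2 fold changes were -1.40 (SE 0.65, edgeR adjusted p = 0.663) for Fads2, -1.37 (SE 0.75, 0.708) for Scd1, -0.85 (SE 0.40, 0.668) for Elovl6, -0.85 (SE 0.38, 0.662) for Scd2 and -0.45 (SE 0.25, 0.713) for Fads1. Without KO replicate 3 the median of the 8 fatty acid genes was -1.03, and without KO replicate 1 or 2 it was -0.47 or -0.48. KO replicate 3 set the size of the 2 widest differences, since without it the log2 fold change was -3.06 for Scd1 and -2.66 for Fads2. Scd1 and Scd2 are similar in sequence, and the treatment of reads common to both is unknown here, which makes their separate levels uncertain.

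**Figure D3:**
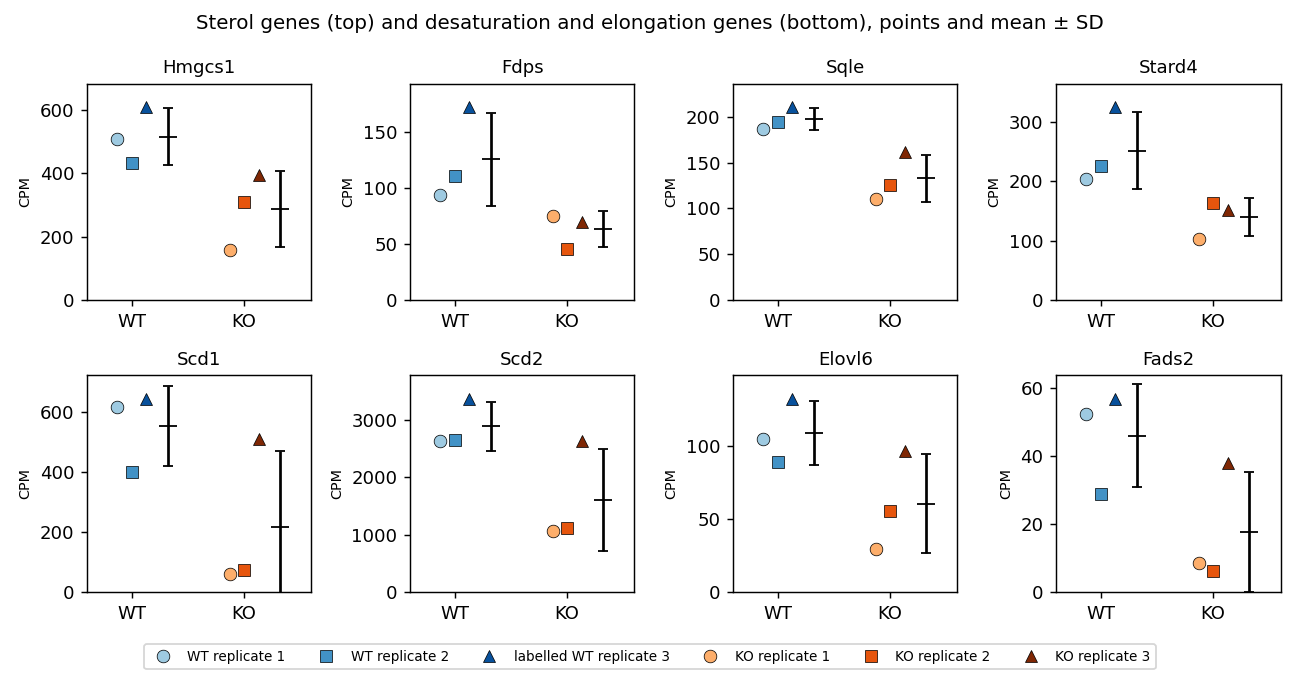
CPM of 4 genes of sterol synthesis and transport (top) and 4 of fatty acid desaturation and elongation (bottom) in each library, with the group mean ± SD (n = 3) beside the points; axes start at 0, where the lower KO bars of Scd1 and Fads2 are cut off. In the top row all KO points lie below all WT points, and in the bottom row KO replicate 3 lies near or within the WT range while KO replicates 1 and 2 lie below it. The top-row genes are among the 9 members with that pattern and do not stand for all sterol genes. Of the 18 sterol enzymes 8 had it, and in Fdft1, Nsdhl and Insig1 KO replicate 3 lay inside the WT range.

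Transcript base composition moved with the values of KO replicate 1. Across the 30 genes, the log2 level of KO replicate 1 relative to the WT mean had a Pearson correlation of 0.74 with the GC content of the transcript, against -0.16 in KO replicate 2 and -0.28 in KO replicate 3. In the WT libraries it was -0.55 in replicate 1, 0.08 in replicate 2 and 0.35 in the library labelled WT replicate 3. The same correlation over all tested genes was 0.75 in KO replicate 1 and -0.30 in WT replicate 1, so it was not a feature of these genes alone. The points of each correlation come from 1 library and genes are not independent replicates. KO replicate 1 was the highest library for 8 members, with GC contents of 50.9% to 59.6% (Mvk, Mvd, Tm7sf2, Ebp, Dhcr7, Srebf1, Srebf2 and Fasn), and the lowest for 15, with GC contents of 41.9% to 51.8%. In the 15 members of lower GC content the median log2 level of KO replicate 1 was -1.26, and in the other 15 it was 0.28, while KO replicate 2 stood at -0.65 and -0.78.

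**Figure D4:**
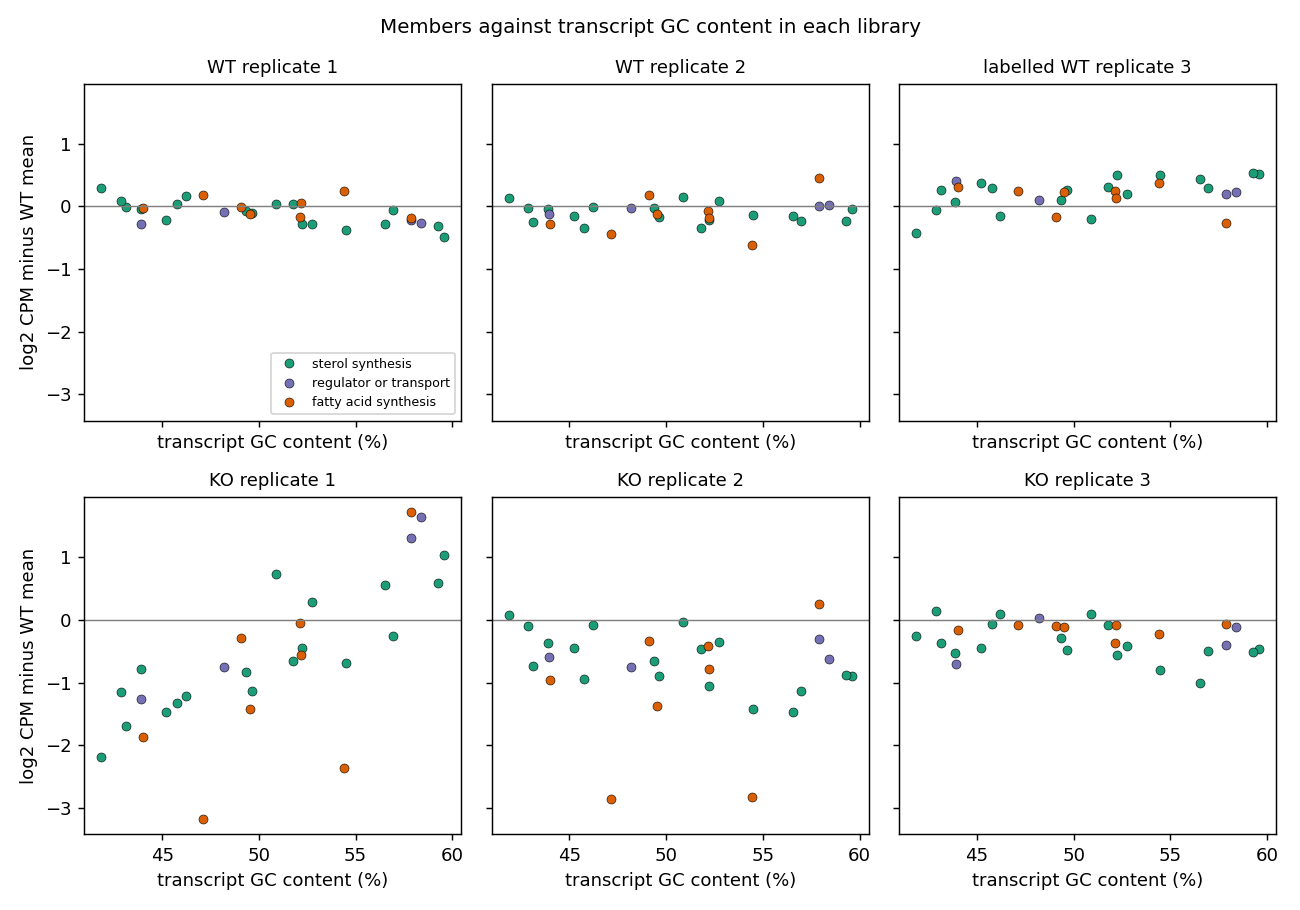
Log2 CPM minus the WT mean of the 30 genes against the GC content of their transcripts, 1 panel per library, coloured by class. The points rise from left to right most steeply in KO replicate 1 (Pearson r = 0.74), and fall in WT replicate 1 (-0.55) over a narrower range of values.

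With a correction of each library for transcript GC content and length, chosen after the data were seen, the sterol genes had the same median difference. It was -0.54 on the log2 scale, 17 of 18 were below 0, and 9 had all KO libraries below WT, where 9.06% of all genes did. At an unadjusted p under 0.05, 14 of the 30 members were lower and 0 higher, where 5.45% of all genes were lower. No member passed the adjusted threshold, with Fdps at the smallest p (log2 fold change -1.13, SE 0.26, edgeR adjusted p = 0.128), where 0.127% of all genes were called. Hmgcs1 was then at 274.1, 275.6 and 352 CPM in the KO libraries against 427.7, 393.7 and 575.8 CPM in WT, and Mvd, Tm7sf2, Acly and Scd2 joined the genes with all KO libraries below WT, while Hsd17b7 left them. The log2 fold change of Srebf1 went to -0.01, of Srebf2 to -0.16 and of Fasn to +0.23. For the desaturases the KO libraries were as far apart as before, with Scd1 at 73.2, 70.0 and 484.7 CPM in KO and Fads2 at 5.85, 6.78 and 41.4 CPM.

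The library labelled WT replicate 3 was the highest library for 18 of the 30 genes. Without it, the median log2 fold change was -0.44 for sterol genes and -0.54 for fatty acid genes, and 1 member was lower at an unadjusted p under 0.05 instead of 7, where 5.15% of all genes passed in either direction. When that library and KO replicate 1 were both left out, the medians were -0.38 and -0.32, and 12 of the 18 sterol genes and 2 of the 8 fatty acid genes had both remaining KO libraries below both remaining WT libraries, where 25.5% of all genes did.

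Other genes of the pathway had medians closer to 0. Of 9 genes that process SREBPs or degrade sterol-regulated proteins, 7 were below 0 (median log2 fold change -0.25). They included Insig2 (-0.64, SE 0.27, edgeR adjusted p = 0.651) and the protease Mbtps2 (-0.72, SE 0.41), while the protease Mbtps1 (+0.31, SE 0.23) and Scap (+0.75, SE 0.46), the SREBP escort, were above 0. Scap was at 167 CPM in KO replicate 1 but 56.1 and 46.5 CPM in KO replicates 2 and 3, beside a WT mean of 53.5 CPM. Mbtps2 was at 12.7 CPM in KO replicate 1 and 41.9 and 38.8 CPM in the others, beside a WT mean of 51.0 CPM. Of 16 other genes of isoprenoid synthesis and cholesterol handling, 12 were below 0 (median -0.13), with Nus1 (-0.53), Pdss1 (-0.43) and Pdss2 (-0.40), which make long isoprenoid chains, at the smallest p, and the lysosomal cholesterol transporter Npc1 at +0.19. Among 14 tested genes of 16 listed for other lipid synthesis, 11 were below 0 (median -0.24), including the acetyl-CoA synthetase Acss2 (-0.97), the acyl-CoA synthetase Acsl3 (-0.92) and Mid1ip1 (-0.42), an activator of acetyl-CoA carboxylase, with the elongase Elovl1 at +0.43. Acsl3 was at 12.9, 39.3 and 69.7 CPM in KO replicates 1, 2 and 3, beside a WT mean of 76.5 CPM. None of these genes was called.

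Genes of cholesterol export and of fatty acid breakdown were also listed. Of 7 listed genes of the sterol-sensing receptor LXR and its targets, 5 were tested and 4 were above 0 (median +0.33), with Mylip at +0.81 (SE 0.36, 2.00 CPM in WT against 3.51 in KO), Nr1h2 at +0.98 (SE 0.53), Abcg1 at +0.33 and Lpcat3 at -0.23. Nr1h2 was at 78.7 CPM in KO replicate 1 but 19.1 and 21.7 CPM in KO replicates 2 and 3, beside a WT mean of 20.2 CPM. Abcg1 was at 33.1 CPM in KO replicate 3 but 18.7 and 10.2 CPM in KO replicates 1 and 2, beside a WT mean of 16.4 CPM. Of 11 genes of fatty acid oxidation 8 were below 0 with a median of -0.04. Cpt1a, which admits fatty acids to mitochondria, stood at +0.56 (SE 0.21, edgeR adjusted p = 0.639), and Hadhb (-0.50), Acadl (-0.53) and Echs1 (-0.37) were below 0. All KO libraries lay above WT in 1 of the 11, Cpt1a, and below WT in 2, Hadhb among them. Over all genes these shares were 7.48% and 8.18%.

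Proliferation genes were listed beside the lipid genes as markers of dividing cells. Of 14, 7 were above and 7 below 0, with a median log2 fold change of -0.01 and summed levels of 5811 to 6141 CPM in WT against 4878 to 7562 CPM in KO. Ccnb1 stood at -0.46, Mki67 at +0.52, Mcm5 at +0.45 and Plk1 at +0.39, and none was called. Mcm5 was at 622.5 CPM in KO replicate 1 but 323.2 and 323 CPM in KO replicates 2 and 3, beside a WT mean of 310.6 CPM. Plk1 was at 211.2 CPM in KO replicate 1 and 136.4 and 155.5 CPM in the others, beside a WT mean of 127.6 CPM. Summed sterol synthesis genes were at 2110 to 2558 CPM in WT compared with 1166 CPM in KO replicate 1, 1642 in KO replicate 2 and 1969 in KO replicate 3. In both sums KO replicate 1 was the lowest of the 6 libraries and KO replicate 3 the highest KO library. Abundant genes weigh most in such sums. Mki67 (1024, 1852 and 2564 CPM in KO replicates 1, 2 and 3) and Top2a (805.3, 1735 and 2099 CPM) were the largest parts of the proliferation sum. Other genes of that list, Mcm5 and Plk1 among them, were instead highest in KO replicate 1. By average log2 level the sterol genes were lowest in KO replicate 2 (-0.66, against -0.59 in KO replicate 1). For proliferation, KO replicates 1, 2 and 3 were at 4878, 6532 and 7562 CPM. The WT libraries were not in the same order in both sums. The library labelled WT replicate 3 was the lowest WT library for proliferation (5811 CPM) and the highest for sterol synthesis (2558 CPM). The parts of sequencing depth and of cell division in the lipid values were not tested. Nor were those of the lower CD8, higher Foxp3 and higher summed T cell markers in KO.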

How the data were processed

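Gene expression was measured by RNA sequencing in 6 libraries, 3 WT and 3 KO, grouped and numbered by their titles (nTreg), not by the source field. Per the series' design text, single-end reads of 75 bp from a stranded mRNA kit went through the VIPER pipeline. STAR 2.4.2a is named per the file headers and mm9 per the submitters' processing notes. For the counter, its strand setting and the annotation: not given in the sources used here. The authors deposited whole-number counts per symbol (24982 rows, of which 26 carry names that read as dates) and, in a second table, FPKM values, normalized for length and depth.

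The main test was the quasi-likelihood F test of edgeR 4.0.16 (R 4.3.3), with TMM factors, genes kept by filterByExpr at a count of at least 10, and p-values adjusted by Benjamini-Hochberg over 11772 genes (threshold 0.05). Standard errors were derived from the F statistic. No p was computed for the members as a set. The members, lists, motifs and named genes were chosen with earlier results of these data known. All members are named, and up to 4 genes of each further list with the smallest p. The pipeline was tested on simulated data. GC content and length come from GENCODE M21 transcripts (30 of 30 members, 99.2% of tested genes), and the correction is a loess fit per library (span 0.3). Alternatives used DESeq2 1.42.0, limma 3.58.1, other scalings and filters, FPKM and fewer libraries. No 2 libraries agreed within sampling noise. A count of 3 corresponds to 0.109 to 0.295 CPM. If replicates were not separate animals, p-values measure technical spread only.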

Additional observations from a re-analysis of the deposited data

How the results depend on the processing

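None of the 30 members was called under any alternative run, and the medians of the sterol and fatty acid genes stayed below 0 under all of them; with 1 library left out they ranged from -0.64 to -0.44 and from -1.03 to -0.47. Scaling moved the median of all genes to at most 0.07 (library size only), where the sterol median was -0.50. The number of genes called over all genes was 2, and 6 with no filter, 129 by DESeq2's Wald test, 1 by limma voom, 0 by limma on log2(FPKM + 1) or log2(FPKM + 0.1) without a filter (1040 and 1033 at an unadjusted p under 0.05), and 0 to 3 with 1 library left out (509 to 1272 at an unadjusted p under 0.05). After the GC and length correction it was 15, and with KO replicate 1 left out together with the library labelled WT replicate 3 it was 80; both alternatives were added after the data were seen. With the replicate number as a block 1 gene and 0 members were called. Whether the numbers pair the libraries cannot be told here. Same-numbered libraries correlated in their deviations at -0.33, 0.15 and 0.14, and not every library correlated best with its own number. With 3 libraries per group, such correlations are too few to decide.

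Directions turned for 7 members, among them Fasn, Srebf1 and Srebf2, whose main values were +0.82, +0.64 and +0.42. Mvk stood at -0.032 with limma voom, -0.13 with the replicate block, -0.023 on log2(FPKM + 0.1), -0.46 after the GC and length correction and -0.41 with those 2 libraries out. With the same 2 out, Ebp stood at -0.055, Sc5d at +0.013, Srebf1 at -0.21, Srebf2 at -0.24 and Fasn at -0.041. After the GC and length correction Srebf1 stood at -0.0069 and Srebf2 at -0.16. With 1 library left out, Mvk ranged from -0.73 to +0.42, Mvd from -0.74 to +0.12, Sc5d from -0.54 to +0.021, Srebf1 from -0.36 to +1.004 and Srebf2 from -0.36 to +0.68. The cause was not tested. Depth limits Tm7sf2, with 22 and 23 counts in KO replicates 2 and 3, and Mvk, with 66 and 67.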
